A study of Ovis aries with 2 samples.

Results

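Genes of DNA replication and of cell division were followed through the skin cells of newborn Hu sheep lambs, a breed whose lamb pelts are valued for their wool pattern. The genes were chosen by name: PCNA, PCLAF and UHRF1 for the S phase of the cell cycle, and MKI67, TOP2A, BIRC5, CENPF, UBE2C and CDK1 for the following phases up to division, which makes 9 of the 18161 genes in the deposited table. All 9 were found there under these symbols. The animals were 3 days old. Skin of 3 lambs with straight wool was pooled into 1 single-cell library. Skin of 3 lambs with curly wool (also called waved by the authors) was pooled into another. Cells released from isolated follicles and from whole skin were combined before capture, so the number of cells of a type also reflects that mixture. No drug or other treatment separates the groups, which differ by the wool phenotype of the lambs. No genotype of the lambs is given.

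A cell that divides first copies its DNA. PCNA is the ring that holds DNA polymerases on the template, PCLAF is the small protein that binds this ring, and UHRF1 brings DNA methylation onto the new strand. CDK1 is the kinase that drives entry into mitosis, TOP2A untangles the copied chromosomes, MKI67 coats them, CENPF sits at their kinetochores, BIRC5 belongs to the complex that corrects their attachment, and UBE2C helps to destroy the cyclins at the exit. In a growing follicle the matrix at the base of the bulb supplies the cells of the inner root sheath (IRS) and of the hair shaft, and in the interfollicular epidermis (IFE) the basal layer supplies the suprabasal layers. Both are among the fastest renewing tissues of the body.

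The straight library held 6452 cells and the curly library 7585 cells, with a median of 7373.5 and 7495 UMIs per cell (a UMI tags 1 captured RNA molecule). Levels are given in CPM, the UMIs of a gene scaled to a total of 1e+06 UMIs summed over the same cells. A gene with no UMI in a whole library may still lie at up to 0.0518 CPM (straight) and 0.0386 CPM (curly), the level of 3 counts. The libraries share 70 cell barcodes. No cell in the table has 4000 genes or more, and cells with mitotic RNA were rich in genes: among the cells called mitosis-positive below, 38.8% (straight) and 44.7% (curly) had over 3500 genes, against 9.21% and 11.9% of the other cells. How many dividing cells lie beyond that upper limit was not tested. With 1 library per wool type there is no spread between lambs, no test was made, and the intervals given are 95% intervals for counting error alone.

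Over whole libraries the 3 S phase genes summed to 243 CPM (239 to 247 CPM) in the straight and 244.0 CPM (241 to 248 CPM) in the curly library. The 6 mitosis genes summed to 221 CPM (217 to 225 CPM) and 189 CPM (186 to 192 CPM). A UMI of PCNA was found in 45.5% of straight and 41.2% of curly cells. Far fewer cells had one of the other genes, with 15.6% and 17.1% for PCLAF, the next most widely seen of the S phase genes, and 4.00% and 4.51% for CDK1.

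Single cells were compared after each had been thinned at random to 3000 UMIs, since depth differs between kinds of cell, which kept 5047 straight and 5673 curly cells. A cell with UMIs of at least 2 of the 6 mitosis genes was called mitosis-positive, and a cell with UMIs of at least 2 of the 3 S phase genes S-positive. Mitosis-positive were 325 straight cells, or 6.44% (5.78% to 7.15%), and 349 curly cells, or 6.15% (5.54% to 6.81%), so the overall shares lay within each other's intervals. Before thinning the shares were 11.2% and 11.4%. A UMI of no mitosis gene was left in 84.1% and 84.5% of the thinned cells, and UMIs of all 6 genes were found in 5 cells of each library.

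The mitosis-positive cells were of 2 kinds by their keratins, without any clustering. KRT14 and KRT5, the keratin pair of basal cells, together reached 5000 CPM in 134 of 325 straight cells, or 41.2% (35.8% to 46.8%), and in 65 of 349 curly cells, or 18.6% (14.7% to 23.1%). The limit was set after the values had been seen, and 29 and 25 of the cells lay within 2-fold of it. Above it the median of the pair was 29072 and 33622 CPM, and below it 919 and 971 CPM. The cells below it carried the markers of the hair matrix, which summed to 4654 and 4926 CPM, against 424 and 611 CPM in the cells above.

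Of all thinned cells at or above the same limit, 5.63% (straight; 4.74% to 6.64%) and 2.56% (curly; 1.98% to 3.25%) were mitosis-positive. Of the cells below it, the share was 7.16% (6.21% to 8.20%) and 9.07% (8.09% to 10.1%). The curly library thus had the lower share among cells rich in basal keratins, with intervals that did not overlap. For the other cells the curly share was the higher and the intervals just overlapped. Those other cells are not follicle cells alone. Within the follicle clusters 1 and 5 described below, the curly share was not the higher. It was 21.1% against 23.7% (straight) in cluster 1 and 8.10% against 17.5% in cluster 5. Lamb, pool, wool type and the mixture of the suspensions cannot be told apart in these values.

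The cells were then placed into 19 clusters, numbered from 0 to 18, after the 9 genes and the other cell cycle genes of a fixed list had been taken out of the genes that define clusters. Names such as IRS-like come from marker genes in which no cell cycle gene takes part. The borders between keratinocyte clusters are not firm: when the same steps were run with 2 other processor settings of the arithmetic library, which differ in rounding only, 23 and 20 clusters arose, with an adjusted Rand index of 0.728 and 0.839 to the clusters used here. Levels by cluster are therefore tied to this division, and what the other divisions gave is stated where it differs.

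Cells with mitotic RNA lay in 3 clusters, each with at least 10 mitosis-positive cells in both libraries. Cluster 1 (631 straight and 1095 curly cells) was led by KRT35, FABP7, DCN, KRT84 and MSX1. It has no name, since markers of matrix and of hair shaft stand side by side among its leading genes. Cluster 5 (322 and 642 cells) was IRS-like, led by KRT71, KRT25 and KRT27, and cluster 3 (758 and 698 cells) was basal IFE-like, with COL17A1 and POSTN among its leading genes. Cluster 1 held 133 and 224 of the mitosis-positive cells, or 40.9% and 64.2% of them, cluster 3 held 114 and 53, or 35.1% and 15.2%, and cluster 5 held 50 and 49, or 15.4% and 14.0%.

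With either other setting, the follicle cells among these came together in 1 matrix-like cluster led by FABP7 and DCN. It held 53.2% to 53.5% of the straight and 74.5% of the curly mitosis-positive cells, and PCLAF, UHRF1 and UBE2C were also among its leading genes. The cells rich in basal keratins made up a basal IFE-like cluster with 114 and 53 of them under the one setting. Under the other they made up a suprabasal IFE-like cluster, with basal IFE as its next best class, with 111 and 53 of them. A follicular and an IFE-like group of dividing cells thus appeared in all 3 divisions, whereas the other 2 did not part the follicular cells as clusters 1 and 5 do.

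Cluster 3 had the highest mitosis sum of the straight library, 688 CPM (669 to 707 CPM), and cluster 1 that of the curly library, 442 CPM (432 to 451 CPM). In the other library these clusters had 383 CPM (368 to 399 CPM) and 466 CPM (452 to 479 CPM). Cluster 5 had 290.5 CPM (straight) and 179.6 CPM (curly). Shallow cluster 2, which is unnamed and led by keratin-associated genes, had 240.0 and 312 CPM from cells with a median of only 702 and 832 UMIs. In the straight library the intervals of clusters 5 (276 to 305 CPM) and 2 (207 to 277 CPM) just overlapped, and in the curly library cluster 2 stood between clusters 3 and 5.

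Next in order came unnamed cluster 17, led by LCN2 and IGFBP2 (137 and 87.7 CPM), and immune-like cluster 11 (99.1 and 89.2 CPM). Every other cluster was at 56.0 CPM or less, the level of endothelial-like cluster 13 in the straight library. HFSC-like clusters 4 and 7 (markers of hair follicle stem cells) had 54.3 and 38.9 CPM and 53.4 and 30.5 CPM, and suprabasal IFE-like clusters 6 and 8 lay between 17.7 and 42.1 CPM. Dermal papilla cells (DPC) are a mostly resting signalling centre under the matrix, and DPC-like cluster 0 had 27.4 CPM (straight) and 27.8 CPM (curly). RNA set free from broken cells can enter any droplet, but its level was not measured. Levels near those of cluster 0 were not read as division, and their source was not tested. Cluster 0 is not a floor, since cluster 8 had 25.6 CPM (straight) and 17.7 CPM (curly).

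**Figure D1:**
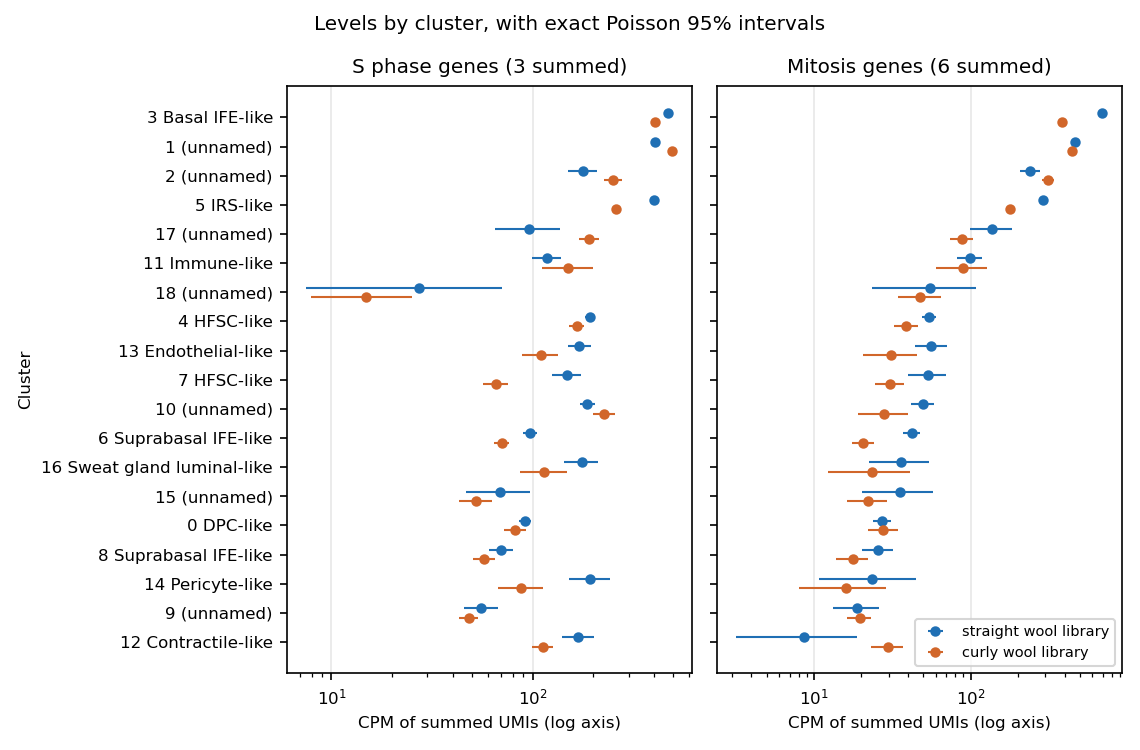
Summed CPM of the 3 S phase genes (left) and of the 6 mitosis genes (right) in each of 19 clusters, on log axes, for the straight (blue) and curly (orange) library, with exact Poisson 95% intervals. Clusters 3, 1, 2 and 5 have mitosis sums of 179.6 CPM or more and all others of 137 CPM or less. S phase sums of 187 CPM or more are reached by clusters 1, 3, 5 and 10 in both libraries. Clusters 2, 4, 14 and 17 reach this level in 1 library each.

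The S phase sum was spread more widely. It was 471 CPM (straight) and 404 CPM (curly) in cluster 3, 408 and 493 CPM in cluster 1, and 402 and 259.9 CPM in cluster 5, where the straight intervals of clusters 1 and 5 overlapped. Shallow cluster 2 had 177.5 CPM (straight) and 251 CPM (curly). Unnamed cluster 10, led by PTHLH, still had 187 and 228 CPM, HFSC-like cluster 4 had 193 and 166 CPM, and pericyte-like cluster 14 had 194 and 87.9 CPM on 74 and 60 UMIs. Most of these lesser sums were PCNA, with 152 and 180.2 CPM in cluster 10, 155 and 138 CPM in cluster 4 and 170.4 and 74.7 CPM in cluster 14.

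PCNA, which also serves DNA repair, was highest in cluster 3, at 264 CPM (straight) and 266 CPM (curly). It stayed at 143 and 97.2 CPM in endothelial-like cluster 13 and at 78.2 and 61.3 CPM in DPC-like cluster 0. PCLAF and UHRF1 were far more restricted. PCLAF had 172 and 181 CPM in cluster 1, 165 and 107 CPM in cluster 3 and 142 and 96.6 CPM in cluster 5, but 7.16 CPM in the straight cells of cluster 0. UHRF1 had 71.9 and 76.1 CPM in cluster 1, 64.3 and 44.2 CPM in cluster 5, and 41.5 and 29.9 CPM in cluster 3, so that for UHRF1 alone of the S phase genes cluster 5 stood above cluster 3 in both libraries.

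The mitosis genes had cluster 3 as the highest in the straight library without exception. TOP2A had 139 CPM (straight) and 87.6 CPM (curly) there, and 103 and 88.7 CPM in cluster 1. UBE2C had 230.4 and 137 CPM in cluster 3, and 168 and 158 CPM in cluster 1. BIRC5 had 92.8 and 53.3 CPM in cluster 3, and 59.5 and 54.4 CPM in cluster 1. For each of these genes cluster 3 stood above cluster 1 in the straight library, whereas the curly library had overlapping intervals for TOP2A (80.4 to 95.2 and 84.6 to 93.0 CPM) and BIRC5 and the higher level in cluster 1 for UBE2C.

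CENPF showed the widest gap between libraries, with 172 CPM (straight) and 75.0 CPM (curly) in cluster 3 against 100.2 and 105 CPM in cluster 1. CDK1, the gene with the fewest UMIs of the 9, had 22.8 and 13.7 CPM in cluster 3 and 12.4 and 11.7 CPM in cluster 1. MKI67 had 30.4 and 16.7 CPM in cluster 3 and 22.0 and 24.0 CPM in cluster 1. It also had 15.6 and 18.5 CPM in immune-like cluster 11, beside 14.7 and 9.45 CPM in IRS-like cluster 5, though the intervals in cluster 11 are wide (9.36 to 24.3 and 6.78 to 40.2 CPM).

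All 9 genes had their highest CPM in cluster 1, 3 or 5 in both libraries. Of 13196 genes with at least 100 UMIs, 817 did so, which is 6.19%. These clusters were picked by the mitosis genes, so the count is a description. A gene could also be high elsewhere: BIRC5 had 48.0 CPM (straight) and 33.0 CPM (curly) in unnamed cluster 18, on 7 and 29 UMIs, where neither library had a UMI of CDK1 or UHRF1. Cluster 18 held 19 and 64 cells with a median of 1852 and 1673 UMIs.

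**Figure D2:**
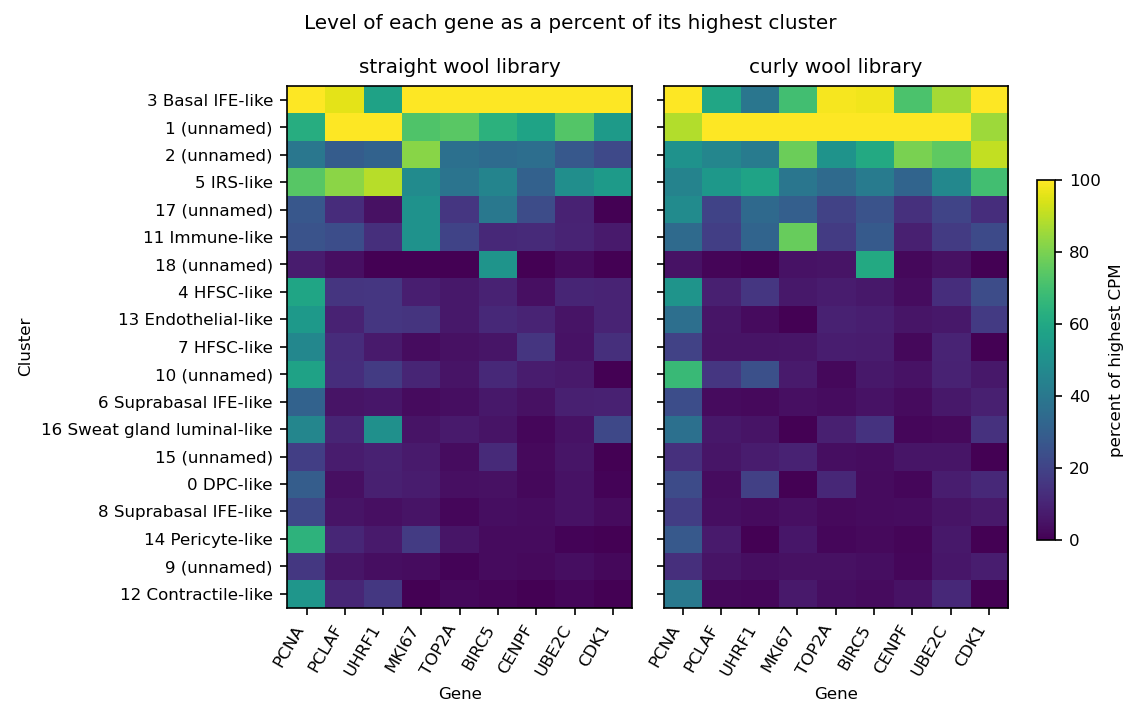
CPM of each of the 9 genes in each cluster as a percent of the highest cluster of that gene, in the straight (left) and curly (right) library. Each gene is at its highest in cluster 1 or 3, PCNA stays high in many clusters (155 and 138 CPM in cluster 4), and BIRC5 has 48.0 and 33.0 CPM in cluster 18.

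Within cluster 1, 23.7% of straight cells (20.2% to 27.4%) and 21.1% of curly cells (18.7% to 23.7%) were mitosis-positive, and 23.9% and 24.9% were S-positive. Within cluster 3, 17.0% (14.2% to 20.1%) and 7.99% (6.05% to 10.3%) were mitosis-positive and 15.8% and 11.6% S-positive. Within cluster 5, the mitosis-positive shares were 17.5% (13.3% to 22.5%) and 8.10% (6.05% to 10.6%), and the S-positive shares 21.1% and 12.9%. The intervals of the libraries overlapped in cluster 1 and not in clusters 3 and 5. These shares move with the division of the cells. In the nearest clusters of the Sandybridge and Nehalem kernels, the mitosis-positive shares were 34.4% and 28.4%, and 34.7% and 28.3%, for cluster 1. They were 5.94% and 1.72%, and 4.55% and 1.67%, for cluster 5. For cluster 3 they were 0.482% and 0% with the one kernel, where the dividing cells lay in another cluster, and 16.7% and 7.91% with the other. DPC-like cells, which should hardly divide, gave 0.274% and 0.180%, from a median of 5976 and 4265 UMIs before thinning, against 16444 and 18064 UMIs in cluster 1.

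HFSC-like cluster 7, led by LGR5, had 1 of 114 and 2 of 427 cells mitosis-positive, and a share above that of DPC-like cells was not detectable at this depth. HFSC-like cluster 4 had 7 of 749 cells (0.935%, 0.377% to 1.92%) and 2 of 350. Immune-like cluster 11 had 6 of 181 straight cells (3.31%, 1.23% to 7.08%) and 2 of 31 curly cells. Suprabasal IFE-like cluster 8 had none of 227 and none of 295 cells. Of cluster 2 only 22 straight and 60 curly cells were deep enough to be thinned, so that its shares say little.

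S phase and mitosis genes were seen together in part of the cells. In cluster 1, 64 of 133 straight and 112 of 224 curly mitosis-positive cells were also S-positive, in cluster 3 these were 60 of 114 and 35 of 53, and in cluster 5 they were 19 of 50 and 15 of 49. TOP2A was found in 55.7% and 49.5% of the cells of cluster 1 with UBE2C, against 10.5% and 7.41% of those without. PCLAF was found in 66.1% and 72.5% of the cells with TOP2A, against 20.5% and 21.7% without. PCNA followed TOP2A less closely, with 41.5% and 55.1% against 27.3% and 34.4%, and UHRF1 had 29.7% and 26.3% against 17.8% and 14.3%. Not each pair went this way. In curly cells of cluster 1, PCNA was found in 35.5% of the cells with CENPF (28.6% to 42.8%) and in 38.1% of those without (34.9% to 41.4%), and in straight cells of cluster 5 UHRF1 was found in 13.7% of the cells with UBE2C and in 15.0% of those without. Cells of 1 library share depth and free RNA, and these shares are a description.

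The members were then set against differentiation. Cells with at least 3000 UMIs were ordered in each library by the summed level of fixed lineage markers and divided into 5 parts of equal size. In cluster 1, of 112 or 113 straight and 212 curly cells a part, the order followed the hair shaft markers KRT35, KRT84, KRT36, KRT31 and HOXC13, whose median rose from 49.4 to 15170 CPM (straight) and from 47.9 to 14073 CPM (curly). The mitosis sum was 789, 674, 620.1, 329.9 and 23.7 CPM in straight cells and 705, 594, 555, 392 and 32.3 CPM in curly cells. It was lower in each part than in the one before, in both libraries, and in the last part it was near the level of DPC-like cells.

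The S phase sum was 663, 650.4, 523, 278 and 47.0 CPM in straight cells and 743, 787, 597, 392 and 46.4 CPM in curly cells. The intervals of its first and second parts overlapped in straight cells and in curly cells (715 to 771 and 758 to 816 CPM), so these parts were not told apart. The order of the first parts is itself loose, since DPC-like cells had 91.5 CPM (straight) and 203 CPM (curly) of the hair shaft markers, above the median of the first straight part and of the first and second curly parts (157 CPM in the second). Between the first and the last part all 9 genes were at least 2-fold lower in both libraries, against 10.9% of 6618 genes with at least 100 UMIs in these parts. TOP2A went from 191 to 3.96 CPM (straight) and from 137 to 4.07 CPM (curly), and PCLAF from 269 to 8.35 CPM and from 283 to 9.95 CPM. PCNA had the smallest differences, by a log2 ratio of -3.17 and -3.62, and kept 30.8 and 28.3 CPM. CDK1 rested on 2 and 3 UMIs in the last part.

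In IRS-like cluster 5, the order followed KRT71, KRT25, KRT27, KRT28 and GATA3, a transcription factor of the IRS lineage, with 57 straight and 121 curly cells a part. The mitosis sum was 339, 352, 317, 351 and 81.3 CPM in straight cells and 357, 275, 180.02, 67.2 and 32.4 CPM in curly cells. The S phase sum was 468, 529, 476, 453 and 91.9 CPM, and 489, 485, 248, 72.7 and 36.3 CPM. The intervals of the first and the fourth straight part overlapped for both sums. In the fourth curly part the S phase sum was near that of curly DPC-like cells (82.2 CPM), while the mitosis sum (57.2 to 78.5 CPM) stayed above their 27.8 CPM. The parts of the libraries were not alike in IRS RNA, since the marker median of the fourth was 3375 CPM (straight) and 8116 CPM (curly), and the fifth straight part had 13640 CPM.

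Between the first and last parts of cluster 5, 8 of the 9 genes had a ratio in both libraries and were at least 2-fold lower in both, against 12.4% of 4784 genes. UBE2C went from 125 to 14.4 CPM (straight) and from 149 to 7.82 CPM (curly). CDK1, the other gene, had 13 UMIs in the first straight part and none in the last, which allows up to 2.87 CPM there. MKI67 rested on 18 and 9 straight UMIs, and its log2 ratio of -1.02 had an interval from -2.36 to 0.21. The first parts cannot be ranked by true IRS expression, since DPC-like cells had 210.5 CPM (straight) and 654 CPM (curly) of these markers, beside medians of 251 CPM (straight) and 374.5 CPM (curly) in the first part.

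Basal and suprabasal IFE-like clusters 3, 6 and 8 were pooled and ordered by KRT1, KRT2, KRT10, KRTDAP and SBSN, genes that cells switch on when they leave the basal layer. The parts held 253 or 254 straight and 282 or 283 curly cells. The mitosis sum was 737, 550.2, 428, 77.8 and 21.6 CPM in straight cells and 510.1, 259, 80.4, 20.0 and 15.6 CPM in curly cells. The S phase sum was 482, 459, 285, 122 and 58.0 CPM, and 484, 354, 122, 59.4 and 58.7 CPM. Both sums were lower in each part than in the one before as far as the fourth. DPC-like and endothelial-like cells had 501 and 1280.3 CPM (straight) and 833 and 3314 CPM (curly) of these markers, so the first parts (medians of 424 and 815 CPM) are loosely ordered too. The first and second S phase intervals overlapped in straight cells (458 to 508 and 434 to 485 CPM). The third part had a marker median of 3828 CPM (straight) but 23896 CPM (curly), and parts with medians of 23896 CPM or more had mitosis sums of 80.4 CPM or less in both libraries.

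From the first to the last part of the epidermal cells, all 9 genes were at least 2-fold lower in both libraries, against 11.1% of 7408 genes. BIRC5 went from 109.7 to 1.42 CPM (straight) and from 68.2 to 1.93 CPM (curly), on 5 and 8 UMIs in the last part. TOP2A went from 144 to 3.13 CPM and from 111 to 1.69 CPM. PCNA kept the largest remainder, from 266 to 49.7 CPM and from 316 to 51.5 CPM, and its log2 ratios of -2.42 and -2.62 were the smallest of the 9 genes.

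**Figure D3:**
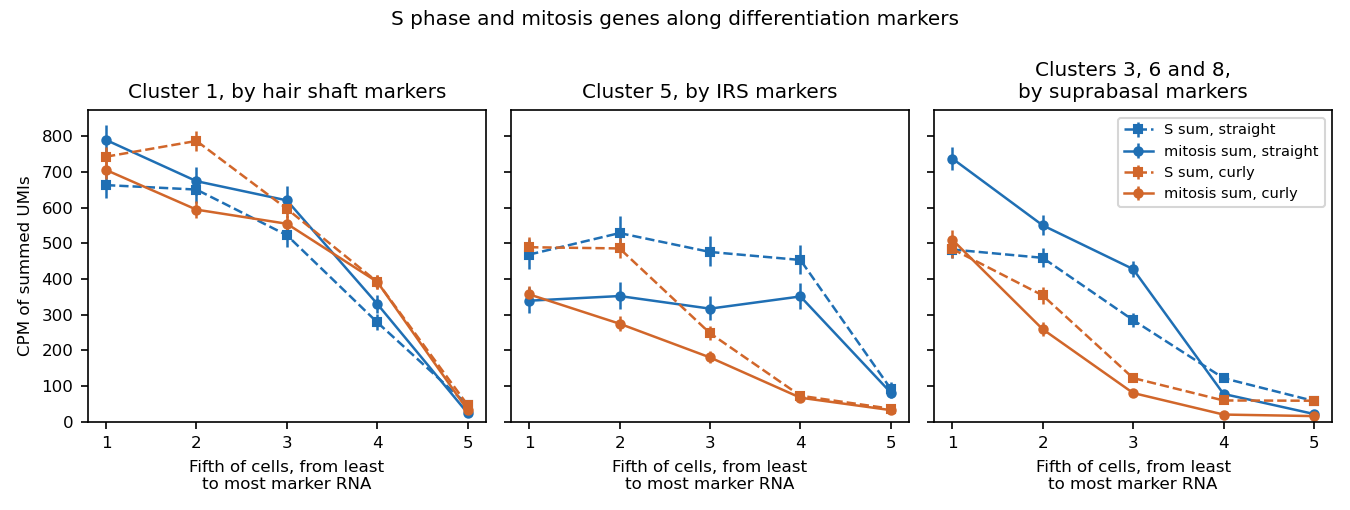
Summed CPM of S phase genes (dashed, squares) and mitosis genes (solid, circles) in 5 equal parts of the cells of cluster 1 ordered by hair shaft markers (left), of cluster 5 ordered by IRS markers (middle) and of clusters 3, 6 and 8 ordered by suprabasal markers (right), for the straight (blue) and curly (orange) library with exact Poisson 95% intervals. In each panel both sums are low in the last part, with mitosis sums from 15.6 to 81.3 CPM there.

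The lineage genes of the mitosis-positive cells themselves were compared with those of the other cells of the same cluster. In cluster 1 the hair shaft markers stood at 1028 CPM against 6364 CPM (straight) and at 1539.8 CPM against 6159 CPM (curly), a log2 difference of -2.63 and -1.9998. KRT35, an early keratin of the shaft, had 973 against 5640 CPM and 1481 against 5782 CPM. KRT31, a later one, had 4.53 against 327 CPM and 1.75 against 136 CPM. The matrix markers were higher in mitosis-positive cells, at 5217 against 4112.5 CPM and at 5617 against 4564 CPM, and among them MSX1, a homeobox gene of the matrix, had 264 against 181 CPM and 231 against 170.2 CPM. LEF1, the nuclear partner of WNT signalling, had the other order, at 78.8 against 103 CPM and 73.4 against 99.0 CPM.

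The hair shaft difference depends on which cells share the cluster. In the matrix-like cluster of the other arithmetic settings, and with cell cycle genes kept for clustering, the hair shaft difference had the other sign, from 0.39 to 0.59 (straight) and from 1.18 to 1.30 (curly). At a finer division of the cells it was -1.27 and -0.39, from few mitosis-positive cells. The matrix list, MSX1 and LEF1 were not compared in those divisions.

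In cluster 5 the mitosis-positive cells were poor in IRS keratins. KRT71 had 528 CPM in mitosis-positive and 3087 CPM in other straight cells, and 579.9 and 6123 CPM in curly cells. KRT27 had 31.4 against 869 CPM and 47.2 against 2027 CPM. GATA3 did not follow, with 256 against 188 CPM and 256 against 230.2 CPM. The matrix markers were higher in the mitosis-positive cells, at 3471 against 2297 CPM (straight) and 2695 against 2075 CPM (curly). At the finer division, 180 cells of cluster 5 joined a matrix-like cluster, so its dividing cells are not shown to be IRS cells. The whole IRS list stood at 1838 against 8665 CPM (straight) and at 1687 against 16176 CPM (curly), a log2 difference of -2.24 and -3.26. It kept its sign in all divisions of the cells and lay between -1.30 and -1.69 with the other arithmetic settings. The nearest clusters of the other divisions held few mitosis-positive cells, however. With cell cycle genes kept these were 4 straight and 3 curly cells, against 50 and 49 in cluster 5.

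In cluster 1, in contrast, IRS markers were higher in the mitosis-positive cells, with KRT71 at 236 against 51.0 CPM (straight) and 329 against 114 CPM (curly), and KRT25 at 418 against 177 CPM and 658 against 338 CPM. In curly cells the whole IRS list of DPC-like cells, 654 CPM, exceeds that of the other cells of cluster 1, 579.9 CPM. The latter was therefore not read as IRS expression. The mitosis-positive cells, at 1160 CPM, lie above both. In straight cells the list had 814 against 282 CPM, beside 210.5 CPM in DPC-like cells.

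The mitosis-positive cells of basal IFE-like cluster 3 had the keratins of the basal layer. KRT14 and KRT5 had 17606 and 14410 CPM in mitosis-positive straight cells, close to 18654 and 15770 CPM in the others, and 23194 and 16056 CPM against 22340 and 16496 CPM in curly cells. KRT1 and KRT10, the first suprabasal keratins, were lower, with 402 against 679 CPM and 627 against 782 CPM (straight), and 856 against 1283 CPM and 1998 against 2083 CPM (curly). The suprabasal list stood at 1796 against 2233 CPM and at 4111 against 5119 CPM, a log2 difference of -0.31 and -0.32. The levels of this list in DPC-like and endothelial-like cells, given above, reach up to 1280.3 CPM (straight) and 3314 CPM (curly). Such levels were not read as suprabasal expression, and their source was not tested. The difference was -0.24 and -0.80 without the cells of highest doublet score. In the nearest cluster it was -0.34 and -0.36 with the Nehalem kernel. It was -2.06 and -2.14 at a finer division, and in straight cells -1.45 with the Sandybridge kernel and -1.40 with cell cycle genes kept. The nearest clusters that gave these larger differences had lost nearly all mitosis-positive cells. With cell cycle genes kept, 5 of 756 straight cells were left, so the larger differences say little.

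KRT15, a keratin of resting basal and stem cells, was lower in the mitosis-positive cells of cluster 3, with 1709 against 5013.5 CPM (straight) and 1078 against 3849 CPM (curly). POSTN, a matrix protein laid down at the basement membrane, had 984 against 1462 CPM and 441 against 812 CPM. SOX9, a transcription factor of the outer root sheath, had 155 against 102 CPM and 117 against 81.8 CPM. The whole list of outer root sheath markers had 240 against 186 CPM and 230 against 179 CPM. KRT17, a keratin of the follicle and of activated epidermis, was higher in mitosis-positive straight cells, at 5702 against 3396 CPM, and lower in curly cells, at 2624 against 3488 CPM. Of these 4 genes KRT17 alone changed direction between the libraries.

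**Figure D4:**
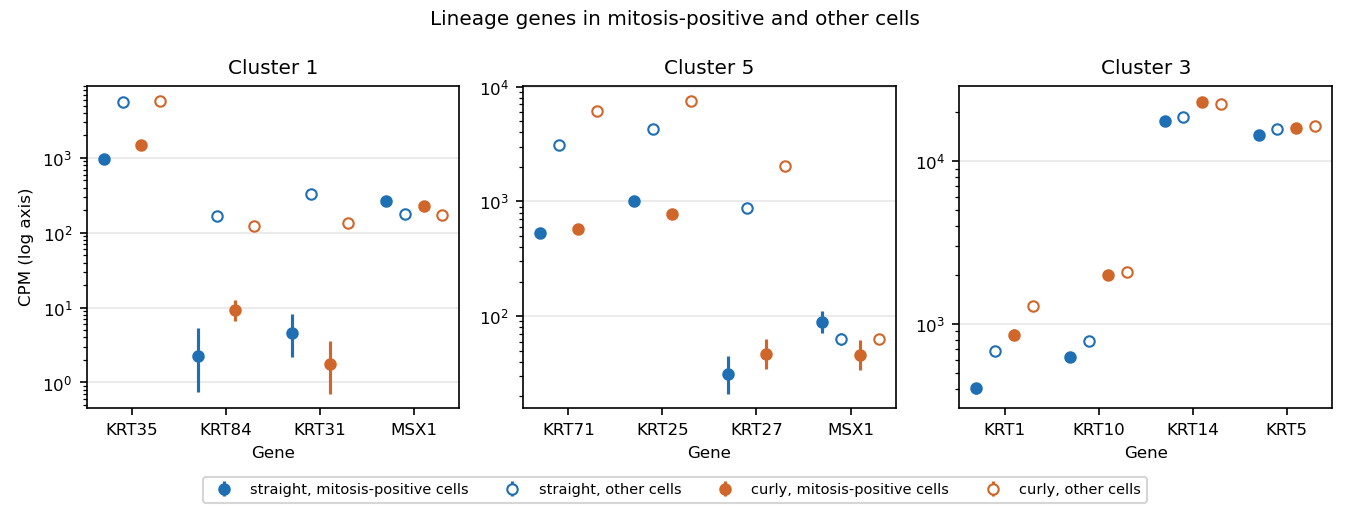
CPM (log axis) of lineage genes in mitosis-positive cells (filled) and in the other cells (open) of clusters 1 (left), 5 (middle) and 3 (right), straight in blue and curly in orange, with exact Poisson 95% intervals where wider than the point. In both libraries KRT35, KRT84 and KRT31 of the hair shaft lie lower in the mitosis-positive cells of cluster 1, and KRT71, KRT25 and KRT27 of the IRS lower in those of cluster 5, while KRT14 and KRT5 are near each other in cluster 3.

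The other genes of the cell cycle were taken from a list by textbook role, with 74 of 75 in the table and 73 with at least 100 UMIs. Of these, 58 had their highest CPM in cluster 1, 3 or 5 in both libraries, beside the 6.19% of all genes given above. By role these were 10 of 12 licensing genes, 5 of 6 genes of nucleotide supply, 7 of 10 of the replication fork, 3 of 6 of S phase control and chromatin, 13 of 17 of mitotic control, 6 of 7 of the kinetochore, 11 of 11 of the spindle and cytokinesis, and 3 of 4 of condensin. From cluster 3 to suprabasal cluster 6 their median log2 difference was 2.46 (straight) and 2.72 (curly) in favour of cluster 3, against 0.21 and 0.32 for all genes. In the nearest clusters of the other arithmetic settings the count was 49 and 24, and it was 1 with cell cycle genes kept for clustering and 0 at a finer division. Each count covers only the nearest clusters, and where it was 24, 1 or 0 these left out clusters rich in dividing cells. With cell cycle genes kept, a basal IFE-like cluster left out in this way had mitosis sums of 2047 and 1918 CPM. The low counts therefore say little about the genes.

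Of the 11 genes of the spindle and cytokinesis, all but KIF2C had their highest CPM in cluster 3 in both libraries. KIF2C, a microtubule depolymerase, had 16.8 CPM (straight) and 6.53 CPM (curly) in cluster 3 and 8.996 and 11.7 CPM in cluster 1. ANLN, a scaffold of the cleavage furrow, had 42.8 CPM (straight) and 22.0 CPM (curly) there and 5.69 and 6.80 CPM in cluster 1. NUSAP1 had 122 and 85.3 CPM against 42.5 and 39.6 CPM, PRC1 had 64.6 and 33.4 CPM against 20.1 and 19.3 CPM, and KIF23 had 44.7 and 22.4 CPM against 11.7 and 11.9 CPM. Genes that license and feed replication were closer. MCM2 of the replicative helicase had 57.5 and 61.6 CPM in cluster 3 and 68.2 and 71.4 CPM in cluster 1, and TYMS, which makes thymidylate, had 39.8 and 40.4 CPM against 46.7 and 45.0 CPM.

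Inhibitors of cyclin-dependent kinases behaved otherwise, and only CDKN2C of 6 was highest in these clusters in both libraries. CDKN1A, the inhibitor known as p21, had 215 CPM (straight) and 73.7 CPM (curly) in cluster 3 and 781 and 732 CPM in suprabasal IFE-like cluster 6. Its highest level was in immune-like cluster 11. CDKN1C had 156 and 222 CPM in DPC-like cluster 0 and 34.6 and 31.5 CPM in cluster 3. CDKN2C had 28.8 and 26.6 CPM in cluster 3 and 6.04 and 7.03 CPM in cluster 6.

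Over the 38 points of 19 clusters in 2 libraries, the genes outside all lists whose log2(CPM + 1) was most alike the S phase sum were STMN1 (Pearson r 0.90), LMNB1, CLSPN, HMGB2, SET, RANBP1, LOC114109729, HMGB1, CENPP and SNRPD1. STMN1, a tubulin-binding protein, had 673 CPM (straight) and 613 CPM (curly) in cluster 1 and 105 and 37.2 CPM in cluster 6. Most alike the mitosis sum were CDCA8 (r 0.91), CDCA3, CCNF, MXD3, CDCA5, SPC24, MND1, ARHGAP11A, DLGAP5 and NEK2. CDCA8, a partner of BIRC5 at the centromere, had 18.4 and 18.5 CPM in cluster 1, 26.0 and 16.7 CPM in cluster 3 and 0.691 and 0.676 CPM in cluster 6. Among the 9 genes themselves, r ranged from 0.26 for PCNA with BIRC5 to 0.89 for TOP2A with CENPF. The points share 2 libraries and differ in depth, and 8 of the 10 genes alike the mitosis sum and 3 of the 10 alike the S phase sum had been used to define the clusters.

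The libraries were then set side by side within a cluster, as log2 of curly over straight CPM, with no test. In cluster 1 the mitosis sum differed by -0.08 (-0.13 to -0.02) and the S phase sum by 0.27 (0.22 to 0.33), where the median of all 9070 genes with at least 100 UMIs was -0.03. None of the 9 genes was 2-fold apart, a limit passed by 2.98% of all genes. PCNA was at 0.52 (0.44 to 0.60) and TOP2A at -0.22 (-0.33 to -0.10), and PCLAF at 0.08 and UHRF1 at 0.08 had intervals that included 0. With TMM scaling the mitosis difference was -0.02 (-0.07 to 0.03).

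In cluster 3 the mitosis sum differed by -0.84 (-0.91 to -0.77) and the S phase sum by -0.22 (-0.30 to -0.15), beside a median of -0.14. CENPF at -1.20 was over 2-fold lower in curly cells, so 1 of the 9 genes passed a limit that 6.41% of all genes passed in either direction and 4.24% in this direction. The other mitosis genes lay between -0.86 for MKI67 and -0.66 for TOP2A, and PCNA was at 0.01. The mitosis-positive share of the cluster was 17.0% in straight and 7.99% in curly cells. It is called from UMIs of the same 6 genes, so it is not a separate observation. In the nearest cluster of one other arithmetic setting, where most dividing cells lay in another cluster, the mitosis difference was -0.20 (-0.51 to 0.11), and in that of the other setting -0.83. The cluster with the dividing cells under the first of these settings had mitosis sums of 810 CPM (straight) and 433 CPM (curly). Of its thinned cells, 23.9% and 12.2% were mitosis-positive.

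In cluster 5 the mitosis sum differed by -0.69 (-0.79 to -0.60) and the S phase sum by -0.63 (-0.71 to -0.55), beside a median of -0.22 for all genes. None of the 9 genes was 2-fold apart, a limit that 4.87% of all genes passed. All were lower in curly cells, from -0.89 for BIRC5 to -0.38 for CDK1, whose interval reached 0.08. The curly cells of this cluster held more IRS RNA, with a list level of 16176 against 8665 CPM among cells that were not mitosis-positive. In the nearest clusters of the other arithmetic settings the mitosis difference was -1.32 and -1.35, and with TMM scaling it was -0.45. Each value compares 2 pools of 3 lambs, and lamb, pool and wool type cannot be told apart.

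**Figure D5:**
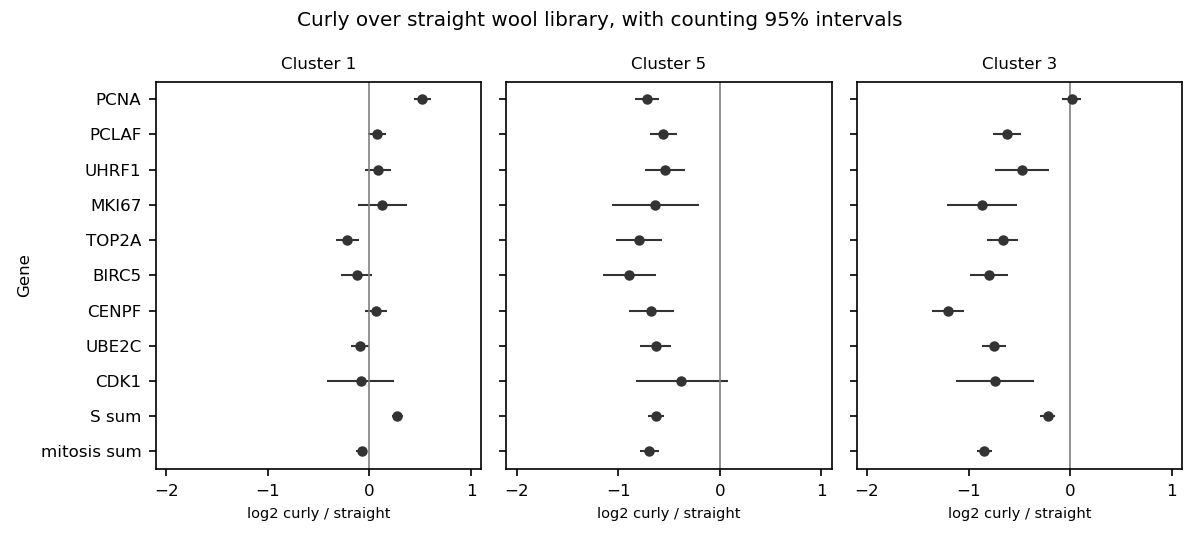
Log2 of curly over straight CPM of the 9 genes and the sums in clusters 1 (left), 5 (middle) and 3 (right), with 95% intervals that cover counting error only. The mitosis genes lie near 0 in cluster 1, where PCNA is at 0.52, and all 6 lie below 0 in clusters 3 and 5.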

How the data were processed

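Single-cell suspensions of skin from 3 straight wool and 3 curly wool Hu lambs were each pooled into 1 10x Genomics library. The authors counted UMIs with Cell Ranger on Oar_rambouillet_v1.0 (version 3.0.2 in the submitters' processing notes), filtered cells in Seurat and deposited a table of natural log values, ln(1 + UMIs per 10000 of the cell). UMIs were calculated back, and 100% of 28552149 values gave whole numbers within 0.01. A normalized unit thus replaced counts, and no count model was fitted.

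Libraries were integrated by anchors in Seurat 5.3.0 (2000 variable genes less 45 cell cycle genes, 30 dimensions) and clustered at resolution 0.3, the lowest in steps of 0.1 with at least 19 clusters. Rounding in the linear algebra library (OpenBLAS) changed the clusters, so its Haswell kernel was fixed, on 1 thread, before its clusters were compared with others. The Sandybridge and Nehalem kernels were added as alternatives after seeing the data, and an earlier analysis of these data, with the values of which the lists were chosen, had run with other clusters. A cluster was named by its best marker class, with a mean log2 ratio of at least 1 over other cells (5 CPM added) at least 3 markers in at least 10% of cells, and more markers of that class than of any other among the 10 leading genes (or none of any other class there), unless its cells were shallow and no marker of the class was among those genes. These limits were set with the values in view. The members and lists were chosen with earlier results of these data known. Named genes were the members, the cell cycle and marker lists and the 10 genes most alike each sum. Clusters 1, 3 and 5, the KRT14 and KRT5 limit, and PTHLH, LCN2, IGFBP2, FABP7 and KRT5 were chosen after their values were seen. KRT14 is listed as LOC101118459.

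UMIs were summed per cluster and library, with exact Poisson intervals for CPM, exact Clopper-Pearson intervals for shares and the exact binomial split for ratios, all covering counting error only. Cells were thinned with a fixed seed. Doublets were not removed in the values reported. Scrublet (scanpy 1.11.5) called 1.05% of straight and 0.0264% of curly cells, which in the curly library is too few for it to have worked, so the 6% of cells with the highest scores were left out as an alternative. Calculations were tested on simulated data.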

Additional observations from a re-analysis of the deposited data

How the results depend on the processing

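No paired analysis was possible because there was 1 library per wool type, and for the same reason no replicate was left out. Pairs of values are straight and curly, list differences are log2 ratios of mitosis-positive over other cells, and ratios are log2. Clusters 1, 3 and 5 were followed into the cluster that shared most cells with each. Where another division of the cells is used, the followed cluster 1 no longer holds the same cells, and the hair shaft difference then changed sign with cell cycle genes kept and with both other kernels. Cluster 3 lost nearly all its mitosis-positive cells with cell cycle genes kept, at the finer resolution and with the Sandybridge kernel, by construction, since they lay in a cluster that was not followed. At the finer resolution the same held for most mitosis-positive cells of clusters 1 and 5. The counts of other cell cycle genes highest in the followed clusters leave out those clusters too. Depth limits MKI67 and CDK1 most.

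With cell cycle genes kept for clustering, cluster 1 had a mitosis sum of 662 and 604 CPM, an S phase sum of 641 and 684 CPM, a mitosis-positive share of 34.1% and 28.0%, an S-positive share of 36.0% and 35.4% and a hair shaft difference of 0.49 and 1.18. In cluster 3 there was a mitosis sum of 47.8 and 37.6 CPM, an S phase sum of 189 and 185 CPM, a mitosis-positive share of 0.661% and 0%, an S-positive share of 2.91% and 3.403% and a suprabasal difference of -1.40 (straight). For cluster 5 this setting gave a mitosis sum of 74.8 and 29.5 CPM, an S phase sum of 88.6 and 50.9 CPM, a mitosis-positive share of 4.44% and 0.940%, an S-positive share of 5.56% and 0.313% and an IRS difference of -1.61 and -1.40. Curly over straight ratios were -0.13 (mitosis) and 0.094 (S phase) in cluster 1, -0.35 (mitosis) and -0.030 (S phase) in cluster 3 and -1.34 (mitosis) and -0.80 (S phase) in cluster 5. The number of other cell cycle genes highest in the followed clusters in both libraries was 1.

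At the finer resolution of 0.8, cluster 1 had a mitosis sum of 50.4 and 42.1 CPM, an S phase sum of 106 and 94.7 CPM, a mitosis-positive share of 1.93% and 1.67%, an S-positive share of 3.09% and 3.33% and a hair shaft difference of -1.27 and -0.39. A matrix-like cluster that was not followed took 466 cells of cluster 1 and 180 of cluster 5. It held 152 straight and 241 curly mitosis-positive cells. For cluster 3 this setting gave a mitosis sum of 51.0 and 42.7 CPM, an S phase sum of 194 and 179.6 CPM, a mitosis-positive share of 0.917% and 0.466%, an S-positive share of 2.75% and 3.03% and a suprabasal difference of -2.06 and -2.14. In cluster 5 there was a mitosis sum of 110.2 and 43.3 CPM, an S phase sum of 147 and 85.7 CPM, a mitosis-positive share of 5.31% and 1.66%, an S-positive share of 10.6% and 3.05% and an IRS difference of -1.52 and -1.30. Curly cells had ratios over straight cells of -0.26 (mitosis) and -0.16 (S phase) in cluster 1, -0.26 (mitosis) and -0.11 (S phase) in cluster 3 and -1.35 (mitosis) and -0.78 (S phase) in cluster 5. The number of other cell cycle genes highest in the followed clusters in both libraries was 0.

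With gene-poor cells left out, cluster 3 had a mitosis sum of 723 and 449 CPM, an S phase sum of 490.0 and 462 CPM, a mitosis-positive share of 10.4% (curly), an S-positive share of 15.0% (curly) and a suprabasal difference of -0.22 and -0.22. In cluster 5 there was an IRS difference of -2.05 (straight). Curly over straight ratios were -0.69 (mitosis) and -0.083 (S phase) in cluster 3.

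Without the 6% of cells with the highest doublet scores, cluster 1 had a mitosis sum of 452 CPM (curly). For cluster 3 this setting gave an S phase sum of 449 and 388 CPM and a suprabasal difference of -0.24 and -0.80.

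Thinned to 5000 UMIs, cluster 1 had a mitosis-positive share of 28.5% and 25.5%, an S-positive share of 35.2% and 35.4% and a hair shaft difference of -2.31 and -2.22. For cluster 3 this setting gave a mitosis-positive share of 21.8% and 10.9%, an S-positive share of 22.8% and 16.7% and a suprabasal difference of -0.093 and -0.057. In cluster 5 there was a mitosis-positive share of 14.4% (curly), an S-positive share of 36.7% and 23.7% and an IRS difference of -2.47 and -3.16.

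Before thinning, cluster 1 had a mitosis-positive share of 39.0% and 40.2%, an S-positive share of 49.0% and 54.9% and a hair shaft difference of -2.27 and -2.06. In cluster 3 there was a mitosis-positive share of 27.2% and 14.3%, an S-positive share of 28.8% and 21.3% and a suprabasal difference of -0.11 and -0.22. For cluster 5 this setting gave a mitosis-positive share of 37.6% and 26.3%, an S-positive share of 55.3% and 42.2% and an IRS difference of -2.16 and -3.37.

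With 1 gene enough for a positive cell, cluster 1 had a mitosis-positive share of 40.6% and 34.3%, an S-positive share of 53.3% and 52.7% and a hair shaft difference of -1.83 and -1.93. For cluster 3 this setting gave a mitosis-positive share of 29.4% and 18.9%, an S-positive share of 43.0% and 36.7% and a suprabasal difference of -0.15 and -0.39. In cluster 5 there was a mitosis-positive share of 38.2% and 23.6%, an S-positive share of 51.2% and 38.0% and an IRS difference of -2.38 and -2.54.

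With 3 genes needed, cluster 1 had a mitosis-positive share of 13.2% and 11.9%, an S-positive share of 3.57% and 5.94% and a hair shaft difference of -2.73 and -2.08. In cluster 3 there was a mitosis-positive share of 11.6% and 5.88%, an S-positive share of 4.18% and 3.32% and a suprabasal difference of -0.16 and -0.79. For cluster 5 this setting gave a mitosis-positive share of 8.77% and 3.31%, an S-positive share of 4.21% and 1.82% and an IRS difference of -2.13 and -3.10.

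With the Sandybridge kernel, cluster 1 had a mitosis sum of 663 and 609 CPM, an S phase sum of 631 and 688 CPM, a mitosis-positive share of 34.4% and 28.4%, an S-positive share of 35.4% and 35.2% and a hair shaft difference of 0.39 and 1.27. For cluster 3 this setting gave a mitosis sum of 43.5 and 37.9 CPM, an S phase sum of 178 and 158 CPM, a mitosis-positive share of 0.482% and 0%, an S-positive share of 1.93% and 3.14% and a suprabasal difference of -1.45 (straight). In cluster 5 there was a mitosis sum of 102 and 41.0 CPM, an S phase sum of 127 and 75.9 CPM, a mitosis-positive share of 5.94% and 1.72%, an S-positive share of 9.90% and 2.01% and an IRS difference of -1.69 and -1.34. Curly over straight ratios were 0.12 (S phase) in cluster 1, -0.20 (mitosis) in cluster 3 and -1.32 (mitosis) and -0.74 (S phase) in cluster 5. The number of other cell cycle genes highest in the followed clusters in both libraries was 24.

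With the Nehalem kernel, cluster 1 had a mitosis sum of 666 and 606 CPM, an S phase sum of 628 and 684 CPM, a mitosis-positive share of 34.7% and 28.3%, an S-positive share of 35.3% and 34.7% and a hair shaft difference of 0.59 and 1.30. In cluster 5 there was a mitosis sum of 109.9 and 43.2 CPM, an S phase sum of 148 and 83.4 CPM, a mitosis-positive share of 4.55% and 1.67%, an S-positive share of 10.9% and 3.06% and an IRS difference of -1.51 and -1.30. Curly cells had ratios over straight cells of -0.14 (mitosis) and 0.12 (S phase) in cluster 1 and -1.35 (mitosis) and -0.82 (S phase) in cluster 5.

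With TMM factors, curly over straight ratios were -0.021 (mitosis) and 0.33 (S phase) in cluster 1, -0.70 (mitosis) and -0.080 (S phase) in cluster 3 and -0.45 (mitosis) and -0.38 (S phase) in cluster 5.

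With means of per-cell CPM, curly cells had ratios over straight cells of -0.28 (mitosis) and 0.19 (S phase) in cluster 1, -1.15 (mitosis) and -0.37 (S phase) in cluster 3 and -0.54 (S phase) in cluster 5.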
